A study of Mus musculus with 45 samples.

Results

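The comparison is between the early effect of a Western diet and the early effect of carbon tetrachloride (CCl4) on hepatic stellate cells (HSCs) of male mice. It uses 15 of the 45 libraries of the series, chosen by their labelled groups: 4 from chow-fed mice (WD 0weeks), 4 from mice fed Western diet with fructose in the drinking water for 12 weeks (WD 12weeks), 4 from vehicle-treated mice (CCl4 0weeks) and 3 from mice given CCl4 for 1 week (CCl4 1week). The strain is C57BL6/J in the labels and C57BL/6JBomTac in the study's methods. CCl4 was diluted in corn oil and given by repeated oral gavage after overnight fasting, and the vehicle mice received corn oil for 8 weeks, longer than the CCl4 exposure of the treated group. The diet mice were of the same age at the end, whatever the length of feeding. Each experiment had its own control, so the difference of the effects removes a constant offset between the experiments. The model still cannot be told apart from the length of treatment or from other features that differed between the experiments.

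HSCs lie between hepatocytes and the sinusoidal endothelium and store vitamin A as retinyl esters in the quiescent state. After injury they lose this store and become contractile myofibroblasts that lay down collagen, and they are the main source of scar tissue in the fibrotic liver. CCl4 is metabolised by hepatocytes to a reactive radical that kills cells around the central vein, whereas a Western diet with fructose loads hepatocytes with fat and leads slowly to steatohepatitis. The cells were sorted by retinoid autofluorescence, so cells that had already lost their retinoid were not collected.

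Genes are given here by their line in the count tables (row 15364 and so on) and not by symbol. The listed identifiers did not follow the counts: the count listed at Col1a1, a collagen gene that activated HSCs express strongly, was between 0 and 2 in all libraries of the series, that at the HSC marker Des between 0 and 3 and that at B2m, which nearly all cells express, between 0 and 1. Markers of hepatocytes, macrophages and other liver cells could therefore not be read, and pathways were not analysed here. The study itself saw raised, though still very low, transcripts of hepatocyte transcription factors in WD libraries. It speculates that material from disrupted hepatocytes was carried along. It also holds traces of macrophage mRNA to be the more likely source of Spi1 and SpiC in vivo. The part of other cell types in the results below was not tested, and in sorted bulk samples a change in the share of a cell type cannot be told apart from a change in RNA per cell.

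Total counts ranged from 2425443 to 7576527 per library with a median of 5402217, and a count of 3 was between 0.375 and 1.36 CPM (counts divided by the normalised library size). One library stood apart. WD 12weeks replicate A correlated with replicates B, C and D of its group at r between 0.92 and 0.94 on the log scale, whereas the other 18 replicate pairs of the 4 groups had r between 0.97 and 0.99. Its counts differed from theirs by a chi-square per degree of freedom of 35.3 to 70.3, against 3.65 to 12.0 in the other pairs. The main counts are therefore also given without this library, but the readings at later times and in culture are not.

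Both treatments changed transcript levels in the sorted HSC libraries. Calls required an FDR of 0.05 or less in edgeR's quasi-likelihood test and an average log2CPM over 2. The average was taken over the 15 libraries of both experiments, and 12214 genes passed this level. After 12 weeks of WD, 2629 genes (21.5%) were higher and 1271 (10.4%) lower than with chow. After 1 week of CCl4, 1337 genes (10.9%) were higher and 1226 (10.0%) lower than with vehicle. Called rises were larger than called falls in both experiments: the median log2 fold change of a called rise was 1.71 in WD and 1.47 in CCl4, and that of a called fall was -0.63 and -0.73. Without WD 12weeks replicate A, 1995 genes were higher and 596 lower in WD, against 1491 and 1419 in CCl4. Limma voom with quality weights called 2924 rises and 2244 falls in WD and 2795 and 3197 in CCl4. The order of the treatments by number of calls therefore depended on the setting. The CCl4 falls rested on few libraries, since 583 to 766 were called when CCl4 1week replicate A or B or CCl4 0weeks replicate D was left out.

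The difference of the effects was then tested directly, as WD 12weeks minus chow against CCl4 1week minus vehicle. The WD effect was higher in 2063 genes (16.9%) and lower in 910 (7.45%). Without WD 12weeks replicate A the numbers were 1766 and 750. Leaving out CCl4 1week replicate A or B reduced the 910 genes to 586 or 560. In the 2063 genes the median log2 fold change was 1.24 in WD and -0.43 in CCl4, and in the 910 genes it was -0.41 and 0.61. The choice on the difference sets these medians apart, and 175 and 55 genes of the lists were called in opposite directions.

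The control groups also differed, which enters the difference. Chow was higher than vehicle in 326 genes (2.67%) and lower in 884 (7.24%). A comparison added after the data were seen left out these 326 and 884 of the 12214 genes. Among the remaining genes the WD effect was higher in 1567 and lower in 739. Under this restriction the CCl4 falls went from 1226 to 707 and the genes called in opposite directions from 230 to 112. The control libraries enter both the restriction and the effects, so part of these drops can come from the restriction itself.

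Across the 12214 genes the effects correlated weakly, with Pearson's r of 0.28 and Spearman's rho of 0.13. Genes are not independent replicates, so this is a description. For single treated libraries, each set against the mean of its own controls, r lay between 0.13 and 0.38 over 12 pairs. The lowest values belonged to WD 12weeks replicate A (0.13 to 0.24) and the highest to replicate D (0.29 to 0.38). Without replicate A, r of the fitted effects was 0.35, and without CCl4 0weeks replicate A it was 0.36.

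**Figure D1:**
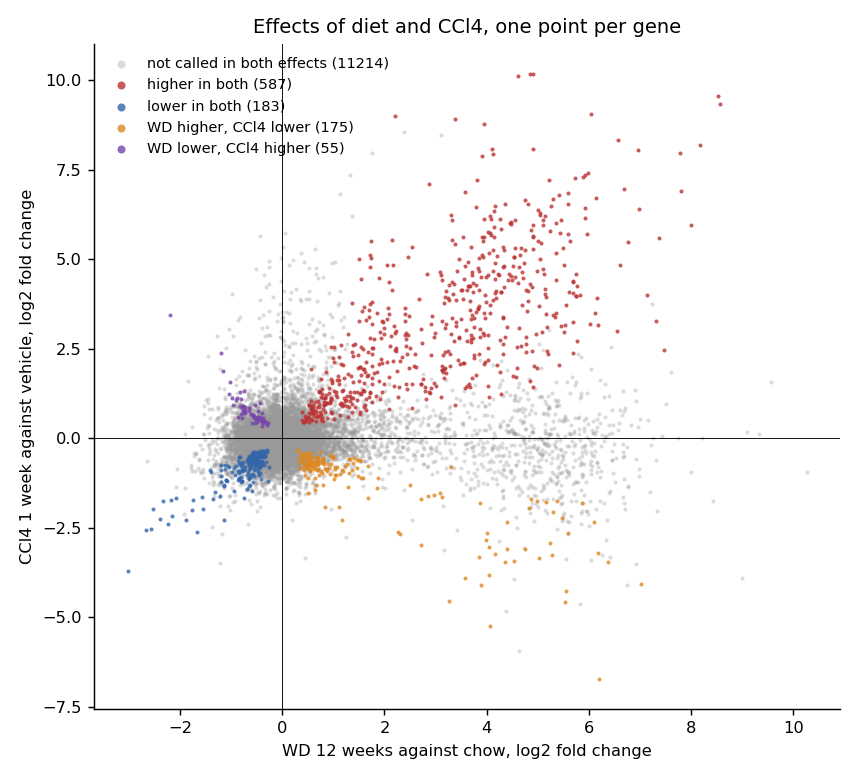
Log2 fold change after 12 weeks of WD against chow (x axis) and after 1 week of CCl4 against vehicle (y axis), with one point for each of 12214 genes and colours for genes called in both effects. The 587 genes higher in both spread to the upper right and the 175 genes higher in WD and lower in CCl4 to the lower right, while the 183 genes lower in both stay close to the centre.

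Shared early calls were mostly rises in the main fit, and less so with limma voom with quality weights (954 rises and 692 falls). 587 genes were higher in both, which is 22.3% of the WD rises (10.9% of all genes rose with CCl4) and 43.9% of the CCl4 rises (21.5% of all genes rose with WD). The level threshold averaged both experiments, so a gene low in both controls passed more easily when it rose in both. How far this set the shares of the 587 genes was not tested. The median log2 fold change of these genes was 3.20 in WD and 2.88 in CCl4. The 183 genes lower in both were 14.4% of the WD falls and 14.9% of the CCl4 falls, against 10.0% and 10.4% of all genes that fell with CCl4 and WD. They moved little, with medians of -0.61 and -0.75. Opposite calls were found in 230 genes, 175 of them higher in WD and lower in CCl4 and 55 the reverse. The 175 genes were 6.66% of the WD rises, where 10.0% of all genes fell with CCl4. The 55 genes were 4.33% of the WD falls, where 10.9% of all genes rose with CCl4. Both shares lay below those of all genes. Without WD 12weeks replicate A there were 580 genes higher in both, 516 of them among the 587, and 117 genes lower in both. The shared falls numbered 84 to 107 when WD 0weeks replicate D or CCl4 1week replicate A or B was left out. Opposite calls numbered 87 or 93 without CCl4 1week replicate B or A, and 140 to 153 without CCl4 0weeks replicate A or D or WD 0weeks replicate B.

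Genes called in both effects were not thereby equal in size. Among the 587 shared rises the difference was not called in 508, while the WD effect was larger in 43 and the CCl4 effect in 36. A 95% interval of the difference that stayed within 1 log2 unit of 0 was reached by 74 of the 587 genes (12.6%), against 35.4% of all genes. The median standard error of the difference was 0.67 in the 587 genes and 0.33 in all genes. Of the 183 shared falls, 132 (72.1%) had such an interval and 4 fell further with CCl4. For most shared rises the data therefore give the direction in both models but do not bound the ratio of the effects within 2-fold.

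Most calls belonged to one effect. 1867 genes were called higher in WD and not called in CCl4, and the difference was called in 1316 of them. The corresponding numbers were 374 of 695 for rises in CCl4, 291 of 1033 for falls in WD and 389 of 868 for falls in CCl4. For the remaining genes of these classes a difference between the models was not shown. A further 290 genes had a called difference with neither effect called.

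**Figure D2:**
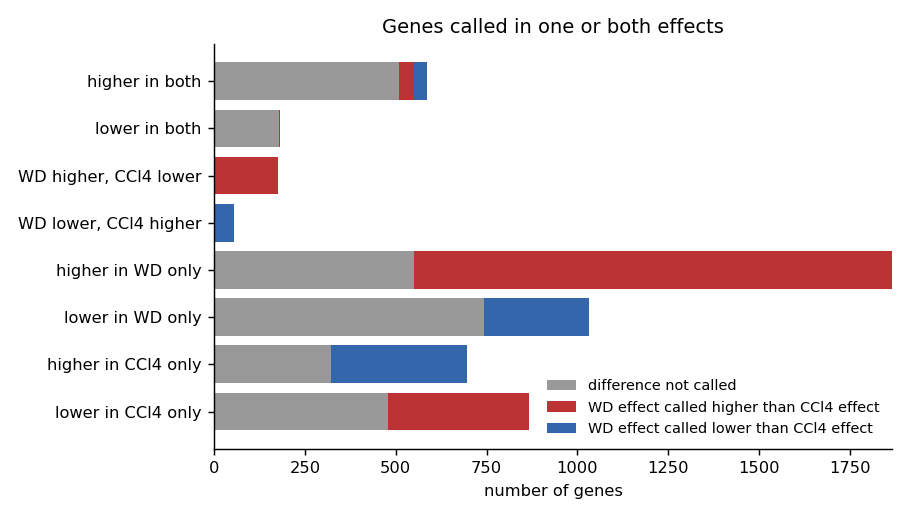
Number of genes (x axis) called higher or lower in both effects, in opposite directions or in one effect (y axis), divided by the test of the difference of the effects. The longest bar, 1867 genes higher in WD and not called in CCl4, is mostly red (1316 genes with a called difference), while 508 of 587 genes higher in both are grey.

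Genes called in one experiment were then read in the other, which shares no library with it. The choice was not fully separate, since the level threshold averaged the 15 libraries of both experiments. A gene low in its own control passed more easily when it was also high in the other experiment. The part this has in the shares below was not tested. Larger CCl4 rises were shared more often. Among CCl4 rises under 2-fold, 16.8% of 459 genes were also higher in WD, below the 21.5% of all genes. The share was 36.9% of 344 at 2 to 4-fold, 62.4% of 306 at 4 to 16-fold and 84.2% of 228 over 16-fold. Over 16-fold, none of the 228 genes was called lower in WD, and their median WD log2 fold change was 4.14, or 4.19 without WD 12weeks replicate A. Their mean level, as log2(CPM + 1), was 1.30, 1.36, 1.36 and 0.90 in the chow libraries and 3.84, 4.39, 3.84 and 4.23 in the WD 12weeks libraries. So every WD library stood above every chow library. The CCl4 1week libraries, on which the genes were chosen, were at 4.60 to 5.03.

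WD rises were also grouped by size. The share of WD rises also higher in CCl4 was 10.0% of 836 genes under 2-fold, near the 10.9% of all genes, 21.0% of 587 at 2 to 4-fold and 40.3% of 467 at 4 to 16-fold. It was 26.0% among the 739 genes over 16-fold, whose median CCl4 log2 fold change was 0.12 with quartiles of -0.88 and 2.24. The mean level of these 739 genes was 1.98, 1.39, 1.01 and 1.49 in the vehicle libraries and 2.41, 2.34 and 1.97 in the CCl4 1week libraries. The groups overlapped through vehicle replicate A and CCl4 1week replicate C. The CCl4 library was higher in each of the 3 pairs of the same letter. The labels do not say what a letter marks, and vehicle replicate D had no partner. The strongest WD rises thus held both genes that rose strongly with CCl4 and genes that did not.

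Among genes that passed the level threshold, strong CCl4 falls were often diet rises. Of the 50 genes that fell at least 4-fold with CCl4, a list formed after the data were seen, 32 were called higher in WD and 10 lower, with a median WD log2 fold change of 3.87. Their mean level was 3.07, 2.18, 2.48 and 3.05 in chow and 5.31, 4.68, 4.65 and 4.43 in WD 12weeks. Every WD library stood above every chow library. In the CCl4 experiment, on which the genes were chosen, it was 3.69, 3.10, 3.06 and 3.20 in vehicle and 1.54, 1.37 and 1.56 after 1 week. Without WD 12weeks replicate A, 28 of the 50 genes were higher in WD and the median was 3.38. All 7 genes that fell over 16-fold were higher in WD, although 7 genes are few. The level threshold averaged all 15 libraries. A gene low in vehicle and near 0 with CCl4 could thus pass only through the libraries of the diet experiment. Row 11983 was such a gene, with means of 1.21 CPM in vehicle, 0.07 in CCl4 1week, 0.87 in chow and 119 in WD 12weeks. The share of diet rises in this list can therefore be set in part by the threshold, and how far was not tested. Of the 932 CCl4 falls under 2-fold, 11.8% were higher and 14.1% lower in WD, against 21.5% and 10.4% of all genes.

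**Figure D3:**
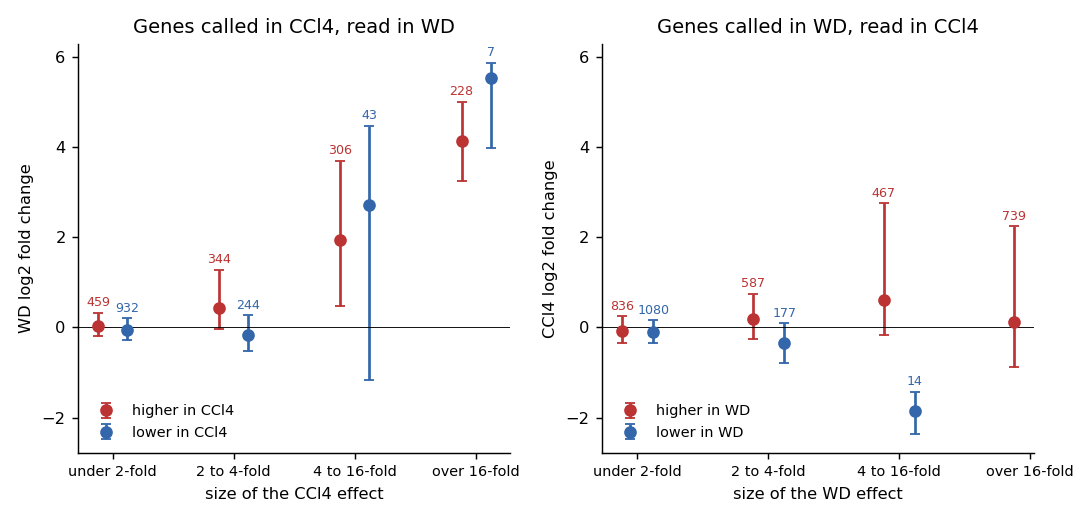
Median log2 fold change, with quartiles as bars, of genes called in CCl4 and read in WD (left) and of genes called in WD and read in CCl4 (right), by the size of the effect they were called on and with the number of genes printed above. The red medians climb to 4.14 on the left and return to 0.12 on the right, and the blue median at 4 to 16-fold on the left is 2.71, above 0. The level threshold averaged the libraries of both experiments and can in part set these medians.

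The same lists were followed over the later times, which were compared with the same chow or vehicle libraries. The CCl4 rises were higher in 43.9% of cases at 12 weeks of WD, 59.8% at 16 weeks and 57.3% at 24 weeks, where 30.4% and 27.2% of all genes were called higher at 16 and 24 weeks. The WD rises were higher in 22.3% of cases at 1 week of CCl4, 40.4% at 4 weeks and 44.8% at 8 weeks, against 20.6% and 21.1% of all genes at 4 and 8 weeks. The mean level of the CCl4 rises was 3.88 ± 0.12 in chow (SD, n = 4), 4.96 ± 0.06 at 12 weeks of WD (n = 4) and 5.60 ± 0.25 at 16 weeks (n = 4). Libraries of these 3 groups did not overlap.

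Most falls in WD were shared late, but the strongest were mostly shared early. Of the 14 falls at 4 to 16-fold, 10 were already lower at 1 week of CCl4, although 14 genes are few. The share was 13.7% of 1080 falls under 2-fold and 14.1% of 177 at 2 to 4-fold. The 1271 genes lower at 12 weeks of WD were lower in 14.4% of cases at 1 week of CCl4, but in 63.9% at 4 weeks and 63.3% at 8 weeks, against 24.9% and 22.2% of all genes. Their mean level was 6.13 ± 0.03 in vehicle (n = 4), 5.99 ± 0.04 at 1 week of CCl4 (n = 3), 5.40 ± 0.16 at 4 weeks (n = 4) and 5.40 ± 0.15 at 8 weeks (n = 3). The step at 1 week was a small part of the later fall, and the libraries at 4 and 8 weeks all lay below those at 1 week. The list leans on WD 12weeks replicate A, where these genes had a mean level of 5.23, against 5.50 to 5.79 in replicates B, C and D. Without it 596 falls were called in WD, and that list was not followed over time.

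Falls in CCl4 showed smaller shares in WD. The 1226 genes lower at 1 week of CCl4 were lower in 14.9% and higher in 14.3% of cases at 12 weeks of WD, where 10.4% of all genes were lower and 21.5% higher. They were lower in 33.9% of cases at 16 weeks and 24.6% at 24 weeks, against 28.8% and 22.5% of all genes. Their mean level was 5.95 ± 0.09 in vehicle and 5.16 ± 0.07 at 1 week of CCl4, and 5.41 ± 0.07 and 5.49 ± 0.12 at 4 and 8 weeks. In chow it was 5.44 ± 0.08 and at 12 weeks of WD 5.51 ± 0.04. The genes were chosen as high in the vehicle libraries, so their level there is not an independent reading.

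**Figure D4:**
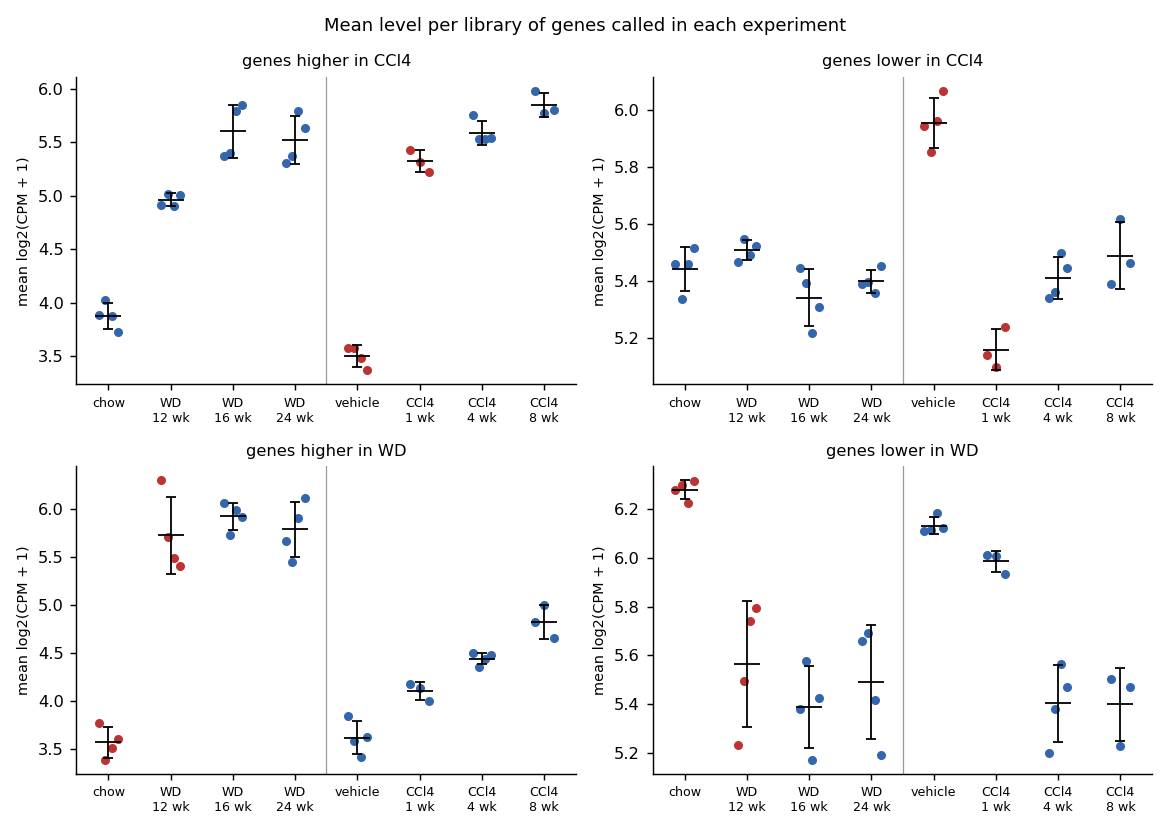
Mean log2(CPM + 1) per library of the genes called higher or lower in CCl4 (top) and in WD (bottom), over the control and 3 times of each experiment; points are libraries, bars are mean ± SD, and red points are the libraries the genes were chosen on. The genes higher in CCl4 rise from 3.88 to 4.96 between chow and 12 weeks of WD, and the genes lower in WD drop between 1 and 4 weeks of CCl4, from 5.99 to 5.40.

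Rows 15364 and 8319 were the strongest shared rises among well-expressed genes. The counts of row 15364 were 3, 3, 2 and 0 in chow and 731, 583, 550 and 880 in WD 12weeks, and they were 2, 0, 1 and 0 in vehicle and 1081, 713 and 759 in CCl4 1week. Both control groups were at or below the floor of 3 counts in every library. The ratio of summed counts per library total was 353 in WD (95% counting interval 179 to 819) and 741 in CCl4 (253 to 3590), and the difference was not called (edgeR FDR = 0.643). Row 8319 was at 0.95, 0.17, 0 and 0.38 CPM in chow and 92.8, 135, 65.1 and 80.5 CPM in WD. It was at 0.85, 0.48, 0.43 and 1.1 CPM in vehicle and 101, 62.5 and 87.6 CPM in CCl4 1week. The log2 fold changes were 7.80 ± 0.57 (SE) and 6.89 ± 0.56 with edgeR FDRs of 5.17e-10 and 2.22e-09, and the 95% interval of their difference ran from -1.21 to 3.01. Row 15364 was higher still at later times, with means of 596 CPM at 16 weeks of WD and 607 CPM at 8 weeks of CCl4.

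Rows 20890 and 11062 were the strongest shared falls. Row 20890 was at 33.2, 33.3, 49.3 and 121 CPM in chow and 4.89, 7.24, 8.63 and 15.9 CPM in WD. It was at 47.1, 49.5, 94.8 and 118 CPM in vehicle and 16.7, 7.68 and 14.6 CPM in CCl4 1week. The control libraries varied widely, and groups that do not overlap were a condition for naming a gene. The log2 fold changes were -2.67 ± 0.53 and -2.56 ± 0.58 (edgeR FDRs 0.000264 and 0.00209). Row 11062 was at 59.9 to 109 CPM in chow, 11.1 to 19.5 CPM in WD, 49.7 to 55.7 CPM in vehicle and 8.91 to 13.5 CPM in CCl4 1week. Its log2 fold changes were -2.39 ± 0.51 and -2.26 ± 0.57 (edgeR FDRs 0.000538 and 0.00495), and their difference had a 95% interval from -1.63 to 1.36.

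Row 19301 rose in both and more with WD. It was at 8.15, 2.8, 4.04 and 6.46 CPM in chow and 317, 121, 105 and 99.1 CPM in WD, with replicate A far above the others. It was at 10.2, 4.28, 3.62 and 8.8 CPM in vehicle and 22.2, 15.8 and 15.5 CPM in CCl4 1week. The difference of the log2 fold changes was 3.47 ± 0.63 (edgeR FDR = 0.000214), and 2.90 without WD 12weeks replicate A. Its rise with CCl4 alone was 1.43 ± 0.45 (edgeR FDR = 0.0233) and was not called without CCl4 0weeks replicate B or C or CCl4 1week replicate A (edgeR FDRs 0.0684, 0.0822 and 0.108).

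Row 4094 rose in both and more with CCl4. Its level was 0.95, 7.42, 3.5 and 0.95 CPM in chow, 129, 352, 185 and 197 CPM in WD, 1.92, 0.71, 1.06 and 0 CPM in vehicle and 619, 456 and 603 CPM in CCl4 1week. The difference was -3.03 ± 0.78 (edgeR FDR = 0.00561). It fell to -2.08 without chow replicate B, the highest chow library, and was then not called (edgeR FDR = 0.0639).

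Row 263 was the largest difference among genes higher in WD and not called in CCl4. It was at 4.93, 0.33, 0.27 and 3.04 CPM in chow and 346, 157, 123 and 97.2 CPM in WD. In vehicle it was at 10.7, 2.62, 0 and 2.57 CPM and in CCl4 1week at 0.63, 1.18 and 0.64 CPM. Replicate A was the highest library in chow, in WD and in vehicle, although the libraries of the groups come from different mice. The difference was 8.62 ± 1.22 (edgeR FDR = 1.8e-05).

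Row 4160 was its counterpart in CCl4. It was at 1.71, 1.9, 0.43 and 1.47 CPM in vehicle and 124, 191 and 152 CPM in CCl4 1week. In chow it was at 1.9, 6.6, 2.97 and 0.38 CPM and in WD at 4.71, 7.24, 7.04 and 7.93 CPM, and these groups overlapped. The CCl4 log2 fold change was 6.82 ± 0.53 and that of WD 1.14 ± 0.47 (edgeR FDRs 9.79e-10 and 0.0649), with a difference of -5.68 ± 0.72 (edgeR FDR = 6.15e-06). Row 4160 stayed low in WD, with means of 3.5 CPM at 16 weeks and 4.74 CPM at 24 weeks, and stayed high in CCl4, with 146 CPM at 4 weeks and 159 CPM at 8 weeks.

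Row 14375 fell in WD alone by the calls. It was at 113, 107, 86.3 and 91.7 CPM in chow and 23.7, 26.2, 46.8 and 44.2 CPM in WD. In vehicle it was at 70.0 to 87.7 CPM and in CCl4 1week at 173, 202 and 122 CPM, above every vehicle library, although the CCl4 log2 fold change of 1.06 ± 0.44 was not called (edgeR FDR = 0.0893). The difference was -2.55 ± 0.62 (edgeR FDR = 0.00352).

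Row 12249 fell in CCl4 and was not called in WD. It was at 197, 120, 198 and 268 CPM in vehicle and 68.5, 50.8 and 84.6 CPM in CCl4 1week. Chow ranged from 53.1 to 164 CPM and WD from 121 to 291 CPM, so the diet groups overlapped. The difference was 2.16 ± 0.50 (edgeR FDR = 0.00232).

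Rows 11983 and 8300 were called in opposite directions. Row 11983 had 6, 1, 1 and 10 counts in chow and 1194, 250, 497 and 340 in WD, and 10, 3, 6 and 2 in vehicle and 0, 0 and 1 in CCl4 1week. The fall with CCl4 thus rested on few counts, and the ratio of summed counts per library total was 0.0415 (95% counting interval 0.001 to 0.258), against 131 (82.4 to 221) in WD. Its difference was called (edgeR FDR = 2.01e-06). The fall with CCl4 alone (edgeR FDR = 0.0193) was not called without CCl4 0weeks replicate A or CCl4 1week replicate A or B (edgeR FDRs 0.0675, 0.0965 and 0.081). Row 8300 was at 30.2, 48.8, 36.7 and 49.4 CPM in chow and 5.62, 19.0, 20.2 and 27.5 CPM in WD, and at 12.2 to 24.3 CPM in vehicle and 106, 111 and 78.3 CPM in CCl4 1week. Its difference was -3.58 ± 0.63 (edgeR FDR = 0.000177). The fall with WD alone was -1.19 ± 0.43 (edgeR FDR = 0.0371), and it was not called without WD 12weeks replicate A or B or chow replicate B or D (edgeR FDRs 0.141, 0.0586, 0.0846 and 0.0798). At 4 and 8 weeks of CCl4 its means were 30.7 and 24.7 CPM, below every CCl4 1week library.

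**Figure D5:**
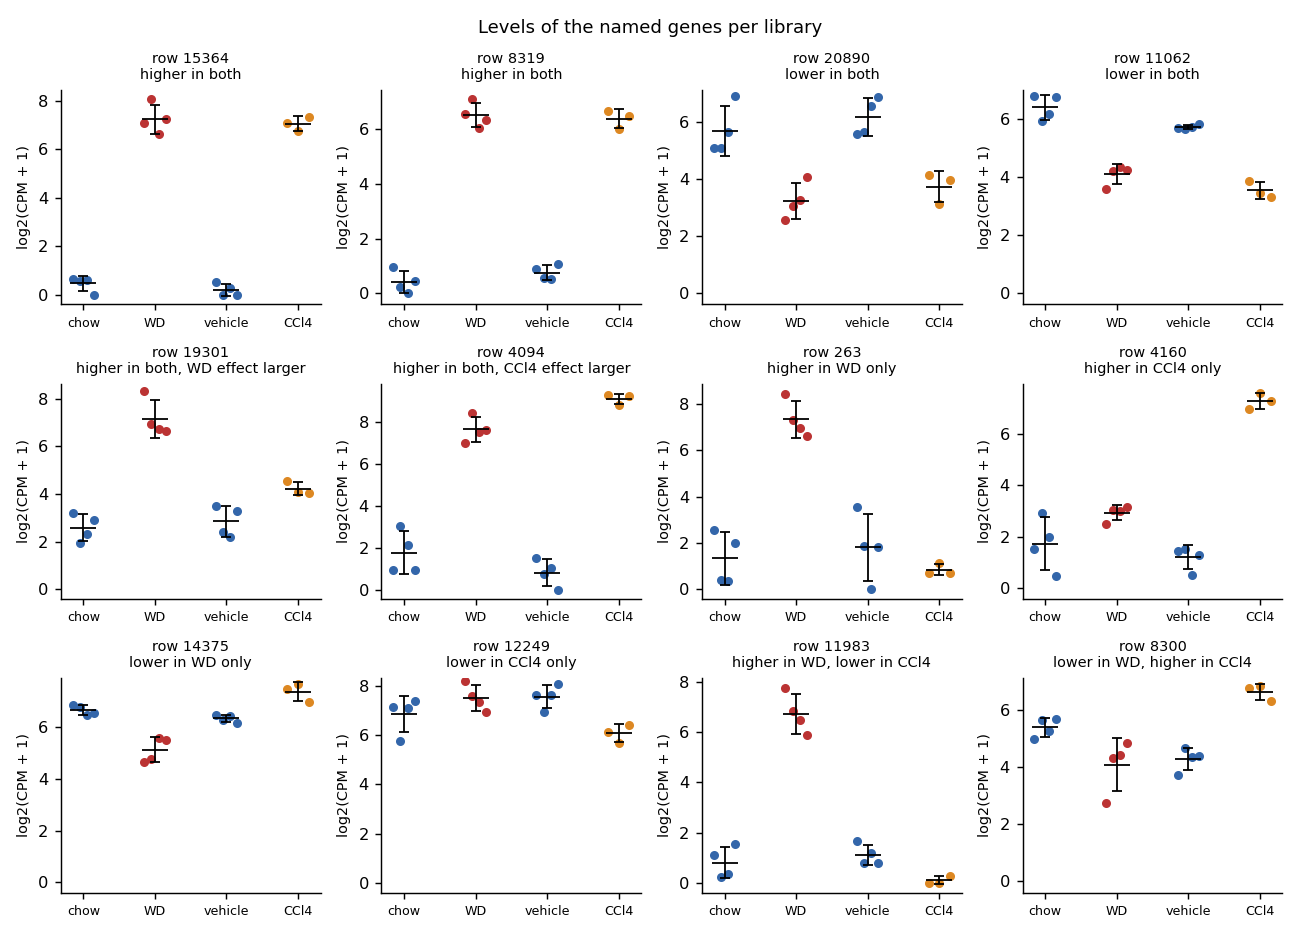
Level of the 12 named genes as log2(CPM + 1) in the 4 compared groups, with one point per library and bars for mean ± SD. In the panels of rows 15364 and 8319 both treated groups stand far above their controls, while in row 11983 the WD libraries reach 57.4 to 216 CPM and the CCl4 libraries are at or near 0.

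The classes were also read in HSCs cultured on plastic, which activates them without a liver, in libraries that had no part in defining the classes. The study's methods name technical replicates for the cultures and biological replicates for sequencing. The culture libraries may therefore not be separate mice, and calls in culture may measure technical spread. After 12 days in culture 42.0% of 11613 genes were higher and 39.8% lower than in cells kept in suspension, and after 1 day 39.7% were higher and 39.6% lower. Library totals in place of TMM moved this background to 52.9% and 30.2% at 12 days and 52.1% and 29.8% at 1 day, so classes are read against it. Of the 587 genes higher in both models, 436 (74.3%) passed the filter in culture, against 95.1% of all genes. Of these 436, 66.7% were higher at 12 days and 42.0% at 1 day. Counted over all 587 genes, 49.6% were higher at 12 days, against 39.9% of all 12214 genes. At 12 days the share was 63.6% for rises in CCl4 with a called difference and 57.4% for such rises in WD, of which 97.1% and 73.7% passed the filter, and 61.8% and 42.3% over the whole classes. The genes lower in both were lower in 74.4% of 180 cases at 12 days and already in 66.7% at 1 day. The share of genes lower was above the background for the shared falls at both times.

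The number of detected genes and the median level were higher with WD. After all libraries were thinned to the same total, 14103 ± 67.7 genes had a read in chow (SD, n = 4) and 15055 ± 226 in WD 12weeks (n = 4; exact two-sided permutation test, p = 0.0286, the smallest this design allows). With vehicle the number was 14532 ± 145 (n = 4) and after 1 week of CCl4 14746 ± 28.7 (n = 3; exact p = 0.0571). These calls depended on the measure, since with counts as deposited the WD test gave an exact p of 0.0571, and with detection at 5 reads the CCl4 test gave an exact p of 0.0286. The median log2(CPM + 1) rose by 0.23 in WD, from 5.01 ± 0.03 to 5.24 ± 0.05 (exact p = 0.0286), and in CCl4 it was 5.04 ± 0.04 and 5.09 ± 0.04 (exact p = 0.171, or 0.0286 without the filter on low counts). Whether these shifts differ between the models was not tested.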

How the data were processed

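The authors aligned the reads of polyA-selected RNA to mm10 with STAR and deposited raw exon read counts per gene from HOMER, in which strand was ignored and a position could add no more than 3 reads; versions are not given in the sources used here. All 23999 rows were joined by line, and Python 3.11.15 checked the identifiers. The 30 mouse libraries of 8 groups were fitted together with edgeR 4.0.16 in R 4.3.3 (TMM, filterByExpr, robust quasi-likelihood test, Benjamini-Hochberg over 14120 genes), and the 15 culture libraries separately. Limma 3.58.1 and DESeq2 1.42.0 served as alternatives. The fit gave a biological coefficient of variation of 0.265. Levels are log2(CPM + 1). The test was tested on simulated data with changes in both treated groups. Counting intervals and the floor of 3 counts cover counting error only.

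Named genes were those of a mean log2CPM above 5, with groups that did not overlap in each called effect, that ranked first (2 genes for the shared classes) by the smaller shared change or the size of the difference in each of 10 classes. The comparison, the classes and the rule were chosen with earlier results of these data known. Libraries were taken as separate mice, since the study used 3 to 4 mice per condition. For cultured cells its methods name technical replicates, and for sequencing 3 to 4 biological replicates. Where libraries are not separate mice, p-values measure technical spread. Replicate letters are shared between groups. Deviations of libraries with the same letter correlated at 0.16 to 0.29 in all 3 CCl4 pairs, which counts as pairing here although nothing in the labels says what a letter marks, and at -0.17 to 0.34 in WD, which does not. Pairs of unlike letters averaged -0.07 in CCl4, but vehicle replicate A with CCl4 1week replicate B reached 0.26. Deviations were taken from group means, so the average of unlike pairs is pushed down when that of like pairs is high. That average is therefore no separate sign of pairing. The main fit did not use the letter. The letter as a block moved no count of calls by over 1.5 times. Of the 21 replicate pairs none agreed within sampling noise. Alternatives were other scalings, filters, tools, libraries and thresholds.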

Additional observations from a re-analysis of the deposited data

Results flagged for a closer look

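The difference of the effects was called in 2063 genes with the WD effect higher and 910 with it lower (edgeR). By the same test the effects differed by 3.47 (log2) in row 19301, -3.03 in row 4094, 8.62 in row 263, -5.68 in row 4160, -2.55 in row 14375, 2.16 in row 12249, 11.09 in row 11983 and -3.58 in row 8300. The value of row 11983 is a fitted one and no bound, since its CCl4 1week libraries held 1 count in all.

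In 60 tests of 4 libraries each for a library far from the other 3, 4 were met, and chance alone gives about 1 in 20. WD 12weeks replicate B had a total count of 2425443, against 5892116 to 6045174 in the other WD 12weeks libraries. Genes lower in WD had a mean level of 6.18 (log2(CPM + 1)) in CCl4 0weeks replicate C, above 6.11 to 6.12 in the other vehicle libraries. Row 15364 was at 0 CPM in WD 0weeks replicate D, while the other chow libraries had 2 or 3 counts. Row 19301 was at 317 CPM in WD 12weeks replicate A, against 99.1 to 121 CPM in the others.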

How the results depend on the processing

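The called effects and differences of the 12 named genes kept their direction under every alternative that gave a value. The called differences held except in row 4094 without chow replicate B. Of the 20 called single effects, the CCl4 rise of row 19301, the CCl4 fall of row 11983 and the WD fall of row 8300 lost their call without single libraries. The first 2 also lost it after thinning (edgeR FDRs 0.341 and 0.155), and row 8300 in separate fits (edgeR FDR 0.0984), where row 11983 gave no value. DESeq2 and limma voom with quality weights retained 2050 and 2038 of the 2063 genes with a higher WD effect, and the blocked fit 1818. Limma voom with quality weights gave more calls: 2924 rises and 2244 falls in WD, 2795 rises and 3197 falls in CCl4, 954 shared rises, 692 shared falls, 928 opposite calls and differences of 3099 and 2199, with r of 0.36 and 30.8% of WD falls lower in CCl4. The 15 libraries alone gave 2158 falls in WD, 398 shared falls, 431 opposite calls, 1679 lower differences and 25.6% of CCl4 falls lower in WD. Each experiment fitted on its own gave r of 0.38 and 9.48% for that share. Without the filter there were 805 CCl4 falls, 104 shared falls and 131 opposite calls, and after thinning 699, 87 and 103, with 9.02% of WD falls lower in CCl4. At 2-fold or more the calls were 191 falls in WD, 878 rises and 294 falls in CCl4, 27 shared falls, 61 opposite and 508 lower differences, with 9.18% of CCl4 falls lower in WD. Genes whose controls were not called different, added after the data were seen, gave 707 CCl4 falls and 112 opposite calls. The cause of these shifts was not tested.

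The median WD change of CCl4 rises was 0.52 and depended on the setting. It was 0.39 with library totals, 0.41 with DESeq2 size factors, 0.62 without the filter, 0.34 with DESeq2 and 0.15 with limma. It was 0.23 with the 15 libraries, 0.33 with separate fits, 0.65 after thinning and 0.65 in genes whose controls were not called different. With the replicate block it was 0.69, and the block gave 1851 and 763 differences, 585 shared rises and 141 shared falls.

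In exact permutation tests, the CCl4 rise in the median level reached p = 0.0286 without the filter (0.35 higher), as did detection at 5 reads (515.3 more genes). With counts as deposited, the rise of 891.5 detected genes in WD had an exact p of 0.0571. In culture at 1 day, 42.0% of shared rises and 39.4% of CCl4 rises with a called difference were higher, near the 39.7% of all 11613 genes. Over the whole classes the shares were 31.2% and 38.2%, against 37.8% of all genes.

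Leaving out single libraries gave 596 to 1403 WD falls, 583 to 1419 CCl4 falls, 84 to 196 shared falls, 87 to 242 opposite calls, 560 to 1012 lower differences and r of 0.25 to 0.36. Shares ranged from 8.25% to 16.6% for CCl4 falls lower in WD and from 7.16% to 19.6% for WD falls lower in CCl4. The median WD change of CCl4 rises was 0.40 to 1.02, and the median CCl4 change of WD rises was 0.031 to 0.21.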
